A study of Arabidopsis thaliana with 6 samples.

Results

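The 42 nuclear genes described here encode subunits of photosystem I and photosystem II, the minor antenna proteins LHCB4 to LHCB6, the cytochrome and plastocyanin proteins, the leaf ferredoxins and ferredoxin NADP reductases, 2 proteins of cyclic electron flow and 2 subunits of the chloroplast ATP synthase. They were chosen by a list of locus identifiers, and all 42 were found among the 24439 genes of the deposited tables. The rule itself uses no measured value, but the genes were chosen with earlier results of these data known. The shares over all tested genes given beside their counts are therefore a description and not a test of the list. The tables give locus identifiers only, and the gene names are symbols or synonyms in the RefSeq gene table. The libraries are RNA-seq of whole Arabidopsis thaliana seedlings of 3 genotypes, with 2 biological replicates each. The mutant pifq is homozygous for 4 mutations whose label is misspelled (pifq1 pifq3 piq4 pifq5) and stands for pif1, pif3, pif4 and pif5 here. The mutant f1f3 is a fypp1 fypp3 homozygote, and Col is the wild type. The labels name no alleles. Seeds of all 3 genotypes were kept dark at 4 °C for 3 days, given white light for 12 h, and then grown at 22 °C without light for 4 days until harvest.

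Photosystem II takes electrons from water and passes them through plastoquinone to the cytochrome b6f complex and plastocyanin. Photosystem I then moves them to ferredoxin, from which ferredoxin NADP reductase makes NADPH, while the proton gradient drives the ATP synthase. In dark-grown seedlings the plastids are etioplasts without stacked thylakoids, and the genes for these proteins are induced by light. The PIF transcription factors bind the G-box sequence and hold back greening before light is seen. FYPP1 and FYPP3 each encode the catalytic part of a PP6-type phosphatase.

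The deposited values are reads scaled per library, and the whole reads behind them could be recovered, between 17.9 M and 27.7 M in each library. The mutated genes were lowered in part. PIF3 fell by 5.24 and PIF5 by 2.32 on the log2 scale in pifq (limma adjusted p = 4.57e-05 and 0.00932). FYPP1 fell by 1.14 and FYPP3 by 1.11 in f1f3 (limma adjusted p = 0.00846 and 0.00737). PIF1 (log2 change 0.46, limma adjusted p = 0.125) and PIF4 (log2 change 0.89, limma adjusted p = 0.0808) did not pass the test in pifq. For each of them both pifq libraries lay above both Col libraries. The labels do not say where these genes are interrupted, so their levels do not test the genotype. PORA, the protochlorophyllide reductase of etioplasts, took 0.0438% and 0.0446% of the reads in pifq, 0.179% and 0.159% in f1f3, and 0.309% and 0.310% in Col, and it fell in both mutants against Col (-2.80 and -1.0 log2), in f1f3 in 1 of the 6 fits without 1 library. The 11 seed maturation genes of a marker list took 0.0924% of the reads of pifq replicate 1, with none at 0, and between 0.000139% and 0.00101% of the reads of the other 5 libraries, where 1 to 5 of them were at 0. The 12 root genes of a marker list took 0.0243% and 0.0296% in pifq, 0.0458% and 0.0411% in f1f3, and 0.0449% and 0.0453% in Col, with none at 0 in any library. Of the root genes, 5 rose and 1 fell in f1f3, beside 11.6% of all tested genes that rose and 12.8% that fell, and those in pifq did not pass. The part of seed or root material in the results below was not tested, and each count is also given without each library in turn.

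Together the 42 genes took 3.49% and 4.04% of all recovered reads in pifq, 0.601% and 0.352% in f1f3, and 1.57% and 1.39% in Col. The pifq libraries were the highest and the f1f3 libraries the lowest, and no group overlapped another. Photosystem I took 1.14% ± 0.206 of the reads in pifq, 0.111% ± 0.0444 in f1f3 and 0.397% ± 0.0543 in Col (SD, n = 2 each). For photosystem II the shares were 1.16% ± 0.0955 in pifq, 0.162% ± 0.0626 in f1f3 and 0.486% ± 0.0416 in Col. The 5 minor antenna genes alone took 0.984% ± 0.0684 in pifq, 0.0783% ± 0.0417 in f1f3 and 0.378% ± 0.0318 in Col. In RNA from whole seedlings, fewer cells of a type and less RNA per cell cannot be told apart.

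**Figure D1:**
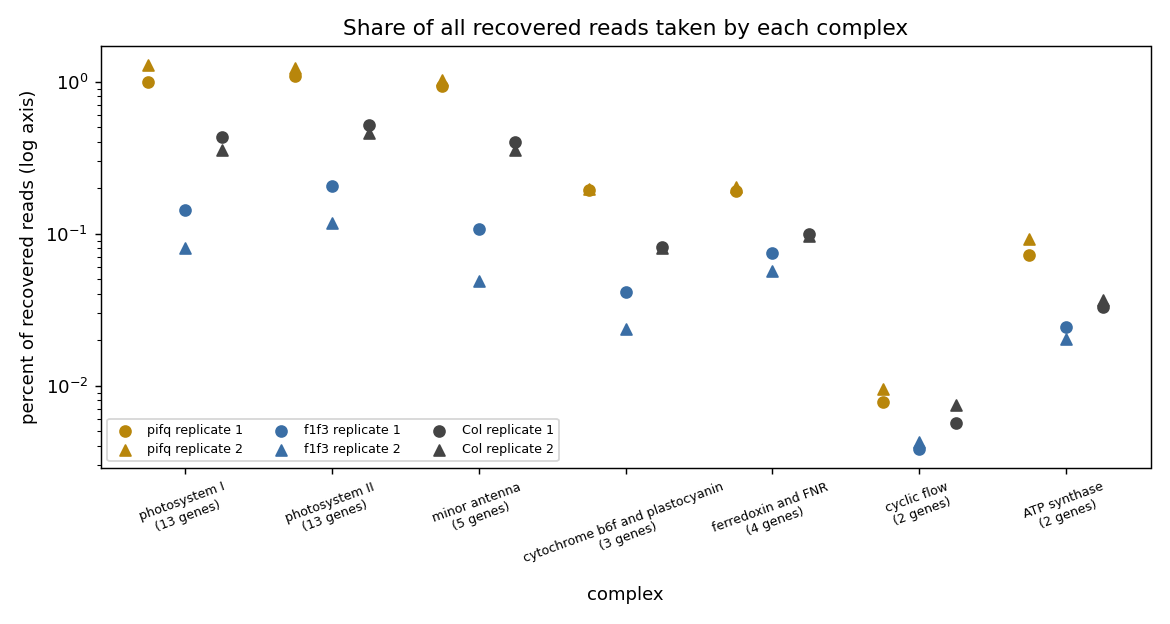
Percent of all recovered reads (log axis) taken by the genes of each complex, with 1 point per library, pifq in ochre, f1f3 in blue and Col in dark grey, circles for replicate 1 and triangles for replicate 2. In each of the 7 complexes both pifq points lie above both Col points, and both f1f3 points lie below them.

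All 42 genes passed the filter on low values and were tested with limma on log2 of the value plus 1, in 1 fit over the 6 libraries with Benjamini-Hochberg adjustment over 20581 genes and a threshold of 0.05. In pifq against Col, 20 of the 42 rose and 0 fell, beside 3.61% of all tested genes that rose and 2.87% that fell. Their median log2 fold change was 1.36, against a median of -0.01 over all tested genes. Both pifq libraries lay above both Col libraries for 39 of the 42, as they did for 27.1% of all tested genes, overlapped Col for FD1 and PGR5, and lay below Col for LHCB4.3. In f1f3 against Col, 38 fell and 0 rose, beside 12.8% of all tested genes that fell and 11.6% that rose. The median was -1.76 (-0.00 over all tested genes), and both f1f3 libraries lay below both Col libraries for 41 of the 42, as they did for 33.0% of all tested genes. In pifq against f1f3, 40 rose and 0 fell, beside 9.36% of all tested genes that rose and 6.63% that fell, with a median of 3.24 (-0.02 over all tested genes) and separated libraries for 40 of the 42 (29.3% of all tested genes). The 3 counts of 0 were also 0 at an unadjusted p under 0.05, and with edgeR and with DESeq2 on the recovered reads. Scaled by library totals, all tested genes split into 14.2% higher and 10.2% lower in f1f3 against Col, with 35 of the 42 lower. In pifq against f1f3 they split into 7.39% higher and 9.22% lower, with 38 of the 42 higher. The same scaling gave 29 of the 42 higher in pifq against Col, where 3.23% of all tested genes were higher and 2.94% lower. The mutants share the Col libraries, so their values against Col are not independent of each other.

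The number of calls differed between fits without 1 library, each of which leaves 1 library in a group. In every such fit a smaller share of all tested genes fell in f1f3 against Col than in the full fit. The share of all tested genes that rose in pifq, against Col and against f1f3, was smaller as well. The counts below thus describe the fits as well as the 42 genes. Without f1f3 replicate 2, 18 of the 42 fell in f1f3 against Col, 23 did so without Col replicate 1, 27 without Col replicate 2, and 33 to 38 without any one of the other libraries. Between 6 and 10 rose in pifq against Col when a Col or a pifq library was left out, and 32 when either f1f3 library was left out. In pifq against f1f3, 36 to 39 rose without any one library. The fold changes kept their sign in all of these, except those of PSB28 in f1f3 and PGR5 in pifq, both close to 0. The falls of 18 genes in f1f3 and the rises of 5 genes in pifq (LFNR1, LFNR2, PSBO2, PSAN and PSAH-2) passed the test without each library in turn.

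**Figure D2:**
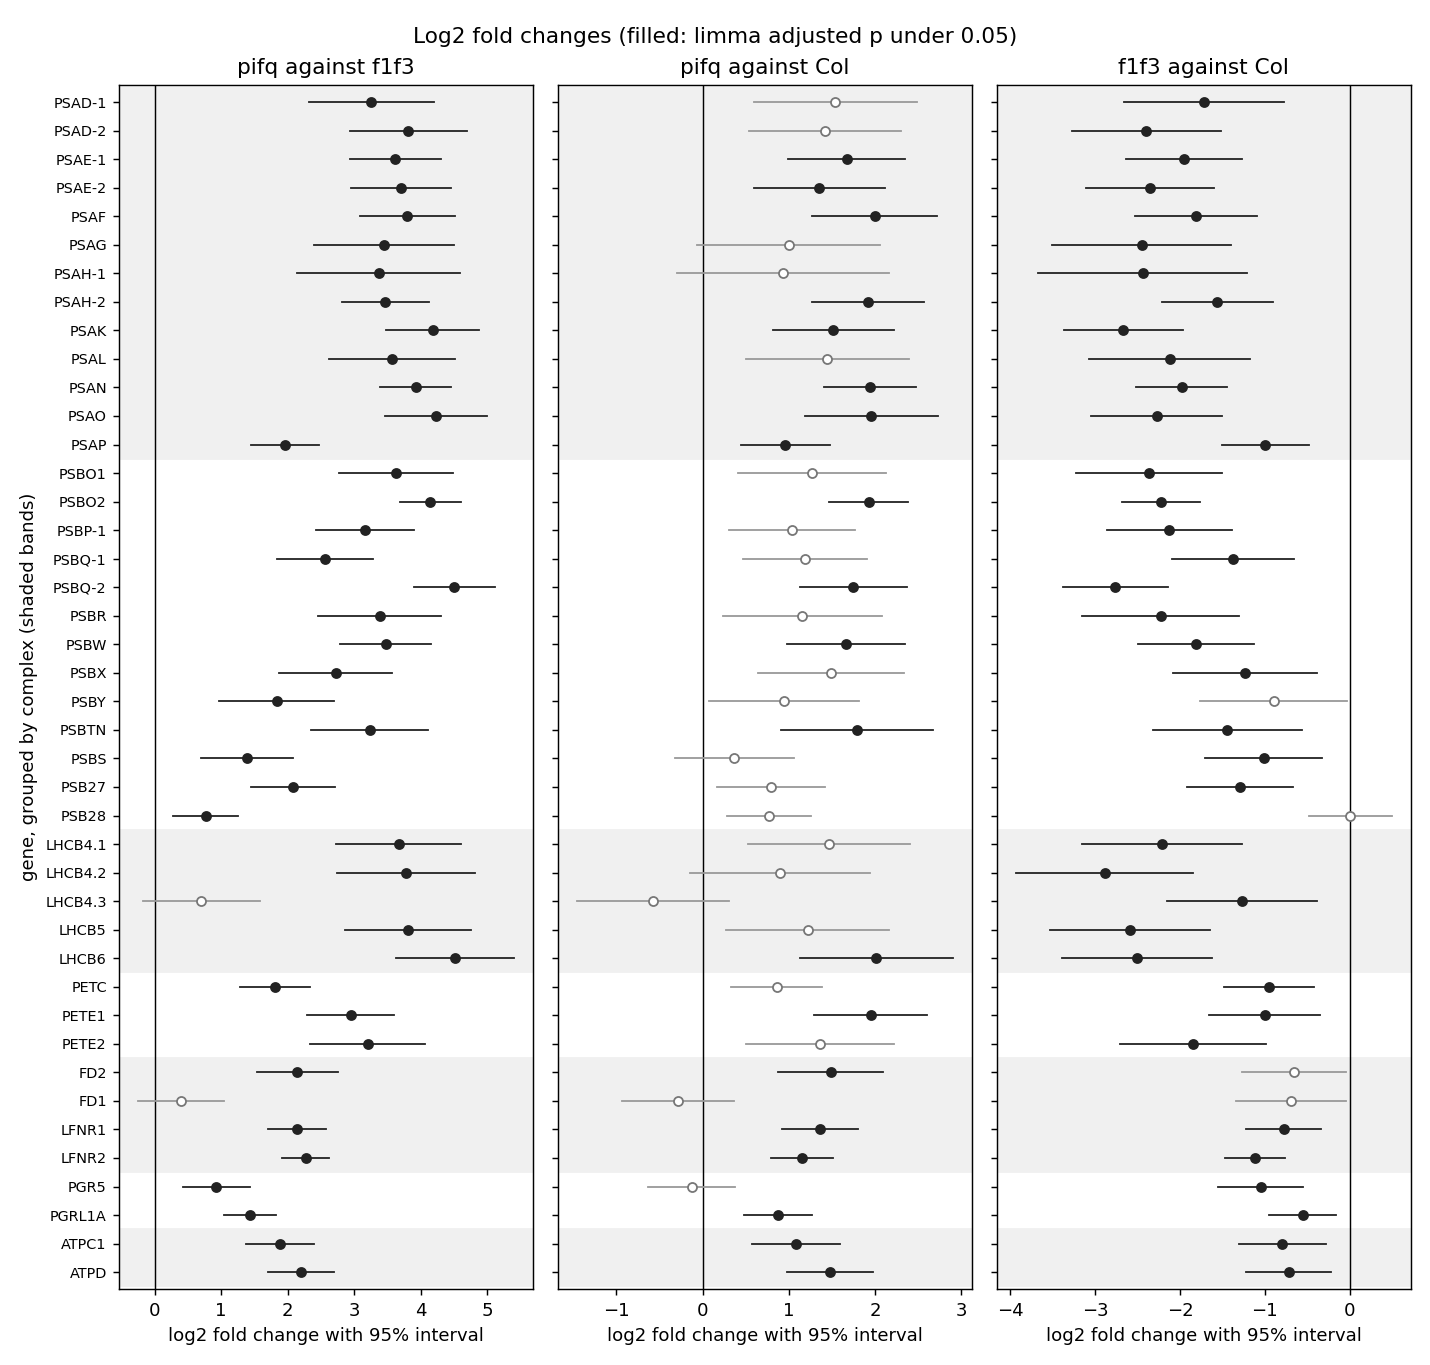
Log2 fold change of each of the 42 genes (x axis, with its 95% interval) in pifq against f1f3, pifq against Col and f1f3 against Col, with genes ordered by complex down the page in shaded bands and filled points for limma adjusted p under 0.05. Points lie to the right of 0 for 42 genes in the left panel and for 39 in the middle one, and in the right panel 41 lie to the left of 0 and PSB28 lies at 0.00.

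The sequences before the gene starts were compared across the 42 genes, because PIF proteins bind the G-box. The window ran from 250 bases before to 50 after the annotated start in the RefSeq TAIR10.1 assembly, and both strands were searched. The G-box CACGTG was found in 15 of 42 windows (35.7%), against 7.68% of the windows of 27443 nuclear protein-coding genes. Over this whole window it was most frequent in photosystem II, with 8 of 13 windows (61.5%). The I-box GATAAG was found in 21 (50%) against 14.6%, with 8 of 13 (61.5%) in photosystem I and 3 of 3 among the cytochrome and plastocyanin genes. The E-box CACATG was found in 8 (19.0%) against 12.9%, CCAATC in 11 (26.2%) against 12.3%, and the core ACGT, which also lies inside every G-box, in 25 (59.5%) against 49.9%. In the 250 bases before the start alone, 9 windows (21.4%) held a G-box and 10 (23.8%) an I-box, against 6.49% and 12.3%. The order of the complexes changed there. The G-box was in 4 of 13 windows in photosystem II (30.8%) and in 2 of 5 in the minor antenna (40%). The I-box was in 4 of 13 in photosystem I (30.8%) and in 2 of 3 among the cytochrome and plastocyanin genes. These shares describe letters and not binding. Below, up to 250 bases before the start are printed 5′ to 3′ on the gene's strand, ending at the base before the start and shortened where they would run into a neighbouring gene, with G-box, E-box, I-box and CCAATC in capitals on either strand.

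In photosystem I, all 13 genes fell in f1f3 against Col (median log2 fold change -2.12), 8 rose and 5 did not pass in pifq against Col (median 1.51), and all 13 rose in pifq against f1f3 (median 3.62). PSAF (AT1G31330, chromosome 1, 11214676 to 11216141, minus strand), the subunit on which plastocyanin docks, had the largest rise of the complex in pifq. Its deposited values were 37893 and 63953 in pifq, 4232 and 2941 in f1f3, and 12550.4 and 12176 in Col. The pifq libraries stood far above the rest and the f1f3 libraries lowest, with no overlap between groups. PSAF thus stood at 3.98 times the Col level in pifq (log2 change 1.99, SE 0.31, limma adjusted p = 0.0117) and at 0.285 of it in f1f3 (log2 change -1.81, SE 0.31, limma adjusted p = 0.0074). PSAN (AT5G64040), a lumenal subunit on the same side, rose by 1.94 in pifq (limma adjusted p = 0.00426) and fell by 1.98 in f1f3 (limma adjusted p = 0.0027), and AT5G64030, whose highest value was 3648, overlaps it over 39 bases. The stretch before the start of PSAF (chr1:11216142-11216391, minus strand), shown because PSAF rose most, holds 1 I-box 66 bases before the start.

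PSAF: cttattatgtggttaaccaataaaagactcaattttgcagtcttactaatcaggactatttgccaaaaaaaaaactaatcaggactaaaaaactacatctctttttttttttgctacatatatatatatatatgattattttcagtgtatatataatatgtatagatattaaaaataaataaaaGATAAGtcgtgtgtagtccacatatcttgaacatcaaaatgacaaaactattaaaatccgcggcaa

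PSAD and PSAE form the stromal side on which ferredoxin docks, and each has 2 genes. PSAD-1 (AT4G02770) had 33545 and 37677 in pifq, 5866 and 2356 in f1f3, and 14612 and 10243 in Col. PSAD-2 (AT1G03130) had 10576 and 14151 in pifq, 1376 and 549.5 in f1f3, and 4763 and 4392 in Col. Both genes were highest in both pifq libraries and lowest in both f1f3 libraries, without overlap. PSAD-1 fell in f1f3 (log2 change -1.72, SE 0.41, limma adjusted p = 0.0208), and so did PSAD-2 (log2 change -2.39, SE 0.38, limma adjusted p = 0.00579). Neither passed in pifq against Col, where PSAD-1 stood at 1.54, limma adjusted p = 0.0652, and PSAD-2 at 1.42, limma adjusted p = 0.0674. PSAE-1 (AT4G28750) had 19848 and 23843 in pifq, 2365 and 1321 in f1f3, and 7690.1 and 6066 in Col. PSAE-2 (AT2G20260) had 7812 and 7808 in pifq, 893.5 and 400.2 in f1f3, and 3236 and 2881 in Col. For PSAE-2 the 2 pifq values were nearly the same, whereas the f1f3 values differed by more than 2-fold, and the groups of both genes were separate. PSAE-1 rose in pifq (log2 change 1.67, SE 0.30, limma adjusted p = 0.0181) and fell in f1f3 (log2 change -1.95, SE 0.30, limma adjusted p = 0.00507). PSAE-2 was just past the threshold in pifq (log2 change 1.35, SE 0.33, limma adjusted p = 0.0499) and fell in f1f3 (log2 change -2.35, SE 0.33, limma adjusted p = 0.00404).

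PSAH, PSAL and PSAO lie where the mobile light-harvesting complex attaches during state transitions. PSAH-1 (AT3G16140) had 3354 and 2639 in pifq, 527.2 and 155.4 in f1f3, and 2223 and 1092 in Col. PSAH-2 (AT1G52230) had 8709 and 14284 in pifq, 1210.1 and 833.9 in f1f3, and 2686 and 3259 in Col. PSAH-1 differed more between the Col libraries than between Col replicate 1 and either pifq library, although no groups overlapped, and its pifq value against Col did not pass (0.93, limma adjusted p = 0.332), the smallest change of the complex in that comparison. PSAH-2 rose in pifq (log2 change 1.91, SE 0.28, limma adjusted p = 0.00927), and both genes fell in f1f3 (PSAH-1 -2.44, limma adjusted p = 0.0157, and PSAH-2 -1.56, limma adjusted p = 0.0085). The gene AT3G16130 on the opposite strand overlaps PSAH-1 over 788 bases, and its highest value in any library was 7.9. PSAL and PSAO both fell in f1f3 (-2.12, limma adjusted p = 0.0107, and -2.27, limma adjusted p = 0.00469). PSAO rose in pifq (1.96, limma adjusted p = 0.0159), and PSAL did not pass there (1.45, limma adjusted p = 0.0798).

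PSAG and PSAK sit at the rim of the complex, PSAK beside the antenna. PSAK (AT1G30380, chromosome 1, 10722183 to 10723247, plus strand) had the largest fall of the complex in f1f3. Its values were 11454 and 11527 in pifq, 906.2 and 441.5 in f1f3, and 4274 and 3786 in Col. The pifq values were almost equal, the f1f3 values were the lowest by far, and no groups overlapped. PSAK stood at 0.157 of the Col level in f1f3 (log2 change -2.67, SE 0.31, limma adjusted p = 0.00258) and at 2.86 times it in pifq (log2 change 1.51, SE 0.31, limma adjusted p = 0.0282). PSAG did not pass in pifq (1.0, limma adjusted p = 0.237), and its Col values of 21027 and 12021 were far apart. PSAP (AT2G46820) is also named CURT1B and known for bending the thylakoid membrane at the margins of grana. It is counted by its name here, and changed least in f1f3 of the 13 genes listed under photosystem I. It had 6435 and 6887 in pifq, 2041 and 1444 in f1f3, and 3862 and 3025 in Col. These groups were separate too, at smaller distances. PSAP rose by 0.96 in pifq (SE 0.22, limma adjusted p = 0.0437) and fell by 0.99 in f1f3 (SE 0.22, limma adjusted p = 0.0173). Of the photosystem I genes, 6 fell in f1f3 without f1f3 replicate 2, 10 without Col replicate 1 and 13 without any other one library. In pifq, 2 to 4 rose without a Col or a pifq library, and 11 without an f1f3 library.

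**Figure D3:**
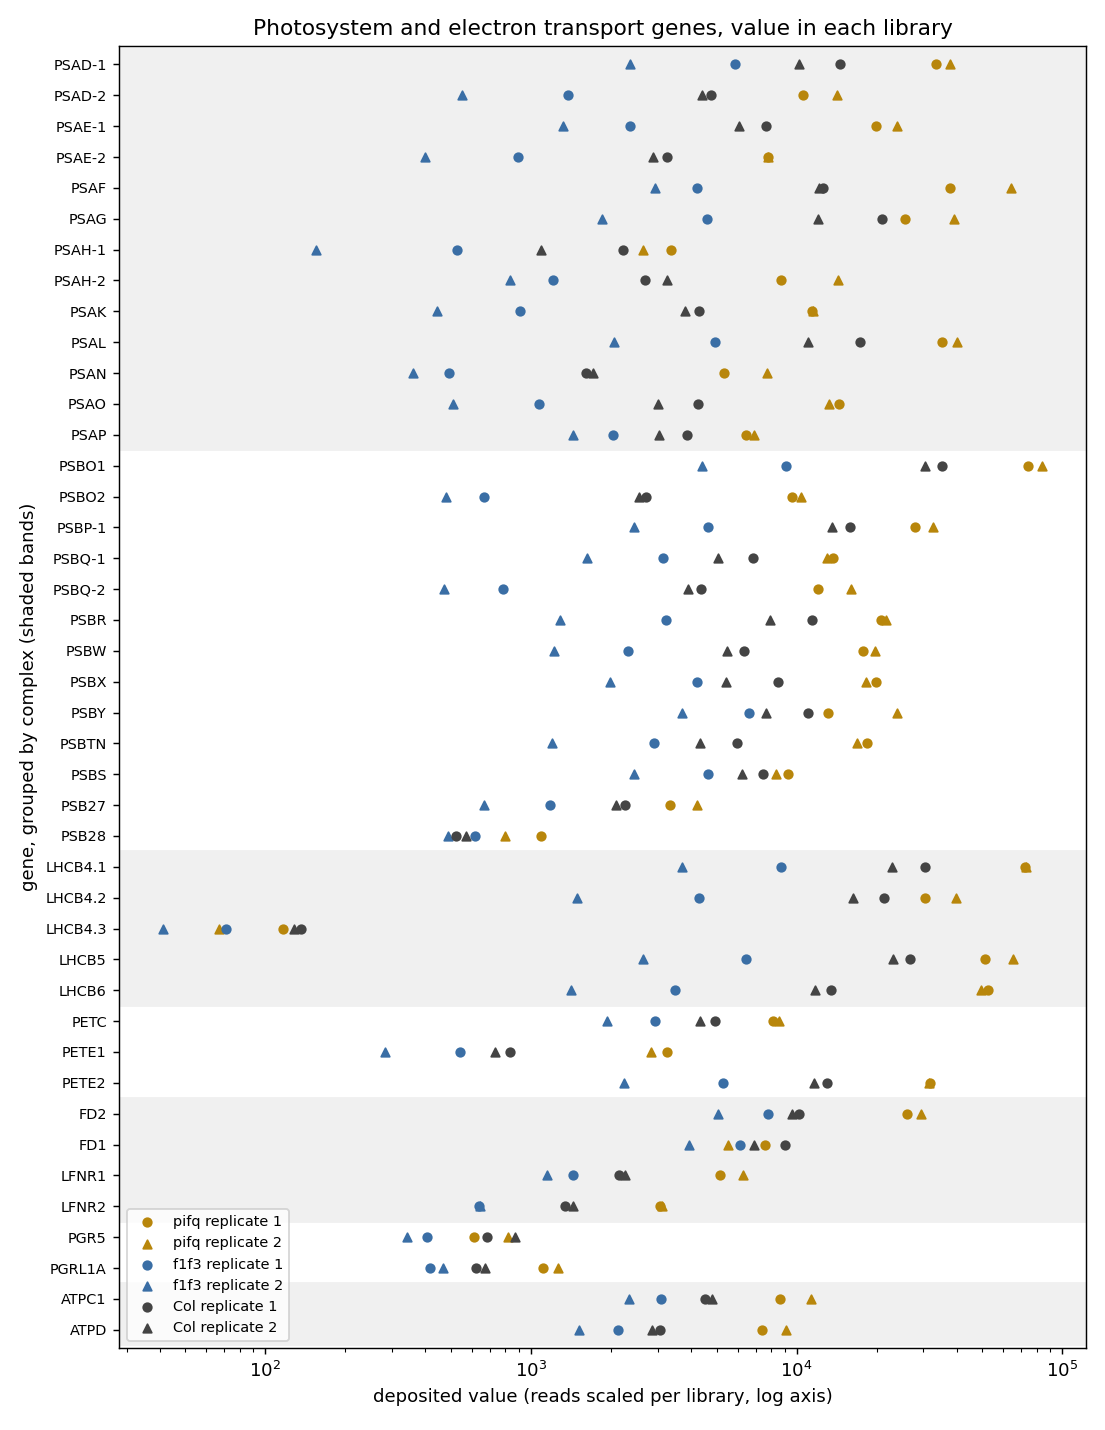
Deposited value (x axis, log scale, reads scaled per library) of each of the 42 genes in each of the 6 libraries, ordered by complex in shaded bands, with pifq in ochre, f1f3 in blue and Col in dark grey, and circles for replicate 1 and triangles for replicate 2. The f1f3 points lie left of the Col points for 41 genes, and the f1f3 triangle lies left of the f1f3 circle for 40 genes.

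In photosystem II, 11 of 13 genes fell in f1f3 against Col (median -1.44), 4 rose and 9 did not pass in pifq against Col (median 1.18), and all 13 rose in pifq against f1f3 (median 3.16). PSBO, PSBP and PSBQ shield the manganese cluster that splits water. PSBO1 (AT5G66570, chromosome 5, 26568572 to 26570461, plus strand), the main gene of the manganese-stabilising protein, had 74104 and 83565 in pifq, 9089 and 4419 in f1f3, and 35253 and 30368 in Col. PSBO2 (AT3G50820, chromosome 3, 18890874 to 18892508, minus strand), its less transcribed paralog, had 9625 and 10407 in pifq, 664.8 and 478.4 in f1f3, and 2708 and 2556 in Col. Both were highest in pifq and lowest in f1f3, without overlap, and the pifq and Col values of PSBO2 were each close together. PSBO2 rose most of the complex in pifq, to 3.8 times the Col level (log2 change 1.93, SE 0.20, limma adjusted p = 0.00236), and stood at 0.215 of it in f1f3 (log2 change -2.22, SE 0.20, limma adjusted p = 0.00137). PSBO1 fell in f1f3 (log2 change -2.37, SE 0.37, limma adjusted p = 0.00566) but did not pass in pifq (log2 change 1.27, SE 0.37, limma adjusted p = 0.0879). PSBP-1 did likewise, with -2.13, limma adjusted p = 0.00491, in f1f3 and 1.04, limma adjusted p = 0.098, in pifq.

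PSBQ-1 (AT4G21280) had 13738 and 12963 in pifq, 3142 and 1629 in f1f3, and 6821 and 5057 in Col. PSBQ-2 (AT4G05180) had 12055 and 15970.4 in pifq, 787.6 and 469.6 in f1f3, and 4362 and 3908 in Col. In pifq both genes were about equally high, whereas PSBQ-2 was below PSBQ-1 in both f1f3 and both Col libraries, by a larger factor in f1f3. All groups were separate. PSBQ-2 had the largest fall of the complex in f1f3, to 0.148 of the Col level (log2 change -2.76, SE 0.27, limma adjusted p = 0.00184), and rose in pifq (log2 change 1.75, SE 0.27, limma adjusted p = 0.0108). PSBQ-1 fell in f1f3 (log2 change -1.38, SE 0.31, limma adjusted p = 0.018) and did not pass in pifq (log2 change 1.18, SE 0.31, limma adjusted p = 0.0642). Each holds 2 G-boxes before its start, 83 and 55 bases before that of PSBQ-1 (chr4:11334169-11334351, plus strand) and 145 and 77 bases before that of PSBQ-2 (chr4:2673244-2673493, minus strand). PSBQ-2 also holds an I-box 15 bases and a CCAATC 246 bases before the start. PSBQ-1 held these 2 motifs as well, but only when the 50 bases after the start were included. Both stretches are shown, chosen after the motifs were seen, because these 2 genes for 1 protein hold the same motif and stood at different shares of their pair in the 3 genotypes.

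PSBQ-1: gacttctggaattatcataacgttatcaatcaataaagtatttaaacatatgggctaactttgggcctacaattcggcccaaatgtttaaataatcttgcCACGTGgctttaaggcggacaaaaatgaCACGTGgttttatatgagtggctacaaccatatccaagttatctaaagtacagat
PSBQ-2: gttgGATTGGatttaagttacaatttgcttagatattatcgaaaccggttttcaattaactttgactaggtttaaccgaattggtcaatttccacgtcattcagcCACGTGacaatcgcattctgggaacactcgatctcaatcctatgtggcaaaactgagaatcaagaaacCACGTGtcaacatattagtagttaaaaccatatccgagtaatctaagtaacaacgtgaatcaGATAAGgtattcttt

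The small subunits PSBR, PSBW, PSBX, PSBY and PSBTN stabilise the complex or its larger assemblies. PSBTN (AT3G21055), a small lumenal subunit, rose in pifq (log2 change 1.79, SE 0.38, limma adjusted p = 0.0331) and fell in f1f3 (log2 change -1.44, SE 0.38, limma adjusted p = 0.0289). PSBW, which holds the supercomplex with the antenna together, did so as well, with 1.66, limma adjusted p = 0.0186, in pifq and -1.81, limma adjusted p = 0.0063, in f1f3. PSBR and PSBX fell in f1f3 (-2.22, limma adjusted p = 0.00844, and -1.23, limma adjusted p = 0.0441) and did not pass in pifq (1.16 and 1.49). The fall of PSBX did not pass with edgeR, without a filter, without a trend or in a fit of 2 groups. PSBY (AT1G67740), a small subunit near cytochrome b559, passed neither against Col. It had 13168 and 23778 in pifq, 6603 and 3716 in f1f3, and 11034 and 7697 in Col. Its libraries were in the same order as those of the other genes and did not overlap, but they spread widely within each group. The log2 fold change of PSBY was 0.94 in pifq (95% interval 0.07 to 1.81, limma adjusted p = 0.181) and -0.90 in f1f3 (95% interval -1.76 to -0.03, limma adjusted p = 0.118). The stretch before PSBTN (chr3:7377227-7377390, minus strand) holds a G-box 13 bases and an E-box 113 bases before the start, and is shown, chosen after the motifs were seen, for the G-box so near the start.

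PSBTN: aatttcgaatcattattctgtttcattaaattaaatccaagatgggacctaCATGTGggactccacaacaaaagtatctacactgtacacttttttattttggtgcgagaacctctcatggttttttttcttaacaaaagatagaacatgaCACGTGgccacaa

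PSBS is the sensor of low lumen pH that starts the heat release of excess light. PSBS (AT1G44575) had 9244 and 8352 in pifq, 4644 and 2438 in f1f3, and 7439.5 and 6211 in Col. The pifq values were only a little above those of Col, without overlap, and the f1f3 values were lower. PSBS changed least of the complex in pifq (log2 change 0.37, SE 0.30, limma adjusted p = 0.502) and fell in f1f3 (log2 change -1.01, SE 0.30, limma adjusted p = 0.0424). That fall did not pass with edgeR, without a filter, without a trend or in a fit of 2 groups. PSB27 and PSB28 help to build and repair the complex. PSB27 fell in f1f3 (-1.29, limma adjusted p = 0.014) and did not pass in pifq (0.79, limma adjusted p = 0.128). PSB28 (AT4G28660, chromosome 4, 14149849 to 14151163, plus strand) had 1086 and 795.6 in pifq, 614.0 and 486.3 in f1f3, and 523.0 and 567.1 in Col. Its f1f3 and Col values overlapped, the only such case among the 42 genes, and its pifq values lay above both. PSB28 stood at 0.00 in f1f3 against Col (95% interval -0.48 to 0.49, limma adjusted p = 0.989), at 0.77 in pifq against Col (limma adjusted p = 0.0732) and at 0.77 in pifq against f1f3 (limma adjusted p = 0.045). Its rise against f1f3 did not pass without any one of the 6 libraries (limma adjusted p up to 0.205), nor with library totals, without a trend or in a fit of 2 groups. Before its start (chr4:14149599-14149848, plus strand) lie a G-box at 132 bases and E-boxes at 222 and 139 bases. It is shown, chosen after the motifs were seen, as a gene that holds a G-box and whose f1f3 and Col values overlapped.

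PSB28: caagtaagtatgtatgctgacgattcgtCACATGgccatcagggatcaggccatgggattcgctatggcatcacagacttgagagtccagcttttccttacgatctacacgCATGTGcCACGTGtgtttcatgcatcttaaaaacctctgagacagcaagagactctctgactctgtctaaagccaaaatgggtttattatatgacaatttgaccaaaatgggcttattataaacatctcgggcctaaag

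Of the photosystem II genes, 6 fell in f1f3 without f1f3 replicate 2 or without Col replicate 1, 8 without Col replicate 2, and 9 to 11 without any other one library. In pifq, 1 or 2 rose without a Col or a pifq library, and 9 without an f1f3 library.

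The minor antenna proteins pass excitation from the outer antenna to the core of photosystem II. All 5 genes fell in f1f3 against Col (median -2.50), 1 rose in pifq against Col (median 1.22), and 4 rose in pifq against f1f3 (median 3.78). LHCB6 (AT1G15820, chromosome 1, 5446462 to 5447880, minus strand) had 52651 and 49226 in pifq, 3479 and 1419 in f1f3, and 13498 and 11752 in Col. Its pifq libraries were far above all others and its f1f3 libraries lowest. LHCB6 had the largest rise of all 42 genes in pifq, to 4.04 times the Col level (log2 change 2.02, SE 0.39, limma adjusted p = 0.0239), and stood at 0.177 of it in f1f3 (log2 change -2.50, SE 0.39, limma adjusted p = 0.00524). Without any one Col or pifq library its rise did not pass, with a limma adjusted p of up to 0.119. The stretch before LHCB6, chosen after the motifs were seen and shown because LHCB6 rose most, has a G-box 124 bases and an I-box 86 bases before the start (chr1:5447881-5448059, minus strand).

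LHCB6: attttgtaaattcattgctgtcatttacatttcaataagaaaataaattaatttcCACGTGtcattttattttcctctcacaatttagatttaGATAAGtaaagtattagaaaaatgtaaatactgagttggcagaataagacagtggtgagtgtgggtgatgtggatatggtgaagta

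LHCB4.1 (AT5G01530) had 72517 and 72761 in pifq, 8728 and 3708 in f1f3, and 30357 and 22828 in Col. LHCB4.2 (AT3G08940, chromosome 3, 2717557 to 2718923, plus strand) had 30481 and 39789 in pifq, 4301 and 1489 in f1f3, and 21384 and 16344 in Col. Both were highest in pifq and lowest in f1f3, without overlap, and f1f3 replicate 2 was far below f1f3 replicate 1 for both. LHCB4.2 had the largest fall of all 42 genes in f1f3, to 0.135 of the Col level (log2 change -2.88, SE 0.45, limma adjusted p = 0.00562), and did not pass in pifq (log2 change 0.90, SE 0.45, limma adjusted p = 0.277). LHCB4.1 fell in f1f3 (log2 change -2.21, SE 0.41, limma adjusted p = 0.00906) and did not pass in pifq (log2 change 1.46, SE 0.41, limma adjusted p = 0.0754). LHCB5 stood likewise at -2.59, limma adjusted p = 0.00569, in f1f3 and at 1.22, limma adjusted p = 0.121, in pifq. LHCB4.3 (AT2G40100, chromosome 2, 16745628 to 16747424, plus strand), the third LHCB4 gene, was the lowest of the 42 genes in every group. It had 116.6 and 67.0 in pifq, 70.9 and 41.3 in f1f3, and 136.2 and 127.8 in Col. Both pifq values lay below both Col values, the only such case among the 42 genes, and the pifq and f1f3 values overlapped. LHCB4.3 fell in f1f3 (log2 change -1.27, SE 0.38, limma adjusted p = 0.0451) and did not pass in pifq (log2 change -0.57, SE 0.38, limma adjusted p = 0.409) or in pifq against f1f3 (0.70, limma adjusted p = 0.256). In f1f3, 4 of the 5 fell without f1f3 replicate 2 or without either Col library. In pifq, 3 rose without an f1f3 library.

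PETC is the iron-sulphur protein of the cytochrome b6f complex, and PETE1 and PETE2 encode plastocyanin, the copper protein that carries its electrons to photosystem I. All 3 fell in f1f3 (median -1.0), PETE1 alone rose in pifq (median 1.36), and all 3 rose in pifq against f1f3 (median 2.95). PETC (AT4G03280) had 8125 and 8588 in pifq, 2925 and 1933 in f1f3, and 4910.4 and 4322 in Col. PETE1 (AT1G76100, chromosome 1, 28553883 to 28554930, minus strand) had 3242 and 2833 in pifq, 539.9 and 282.6 in f1f3, and 834.0 and 734.3 in Col. PETE2 (AT1G20340, chromosome 1, 7042046 to 7043392, minus strand), the main plastocyanin gene, had 31683 and 31578 in pifq, 5299 and 2229.5 in f1f3, and 13023 and 11646 in Col. For all 3 the groups were separate, and the 2 pifq values of PETE2 were nearly equal while its f1f3 values differed by more than 2-fold. PETE1 stood at 3.87 times the Col level in pifq (log2 change 1.95, SE 0.28, limma adjusted p = 0.00891) and at 0.5 of it in f1f3 (log2 change -1.0, SE 0.28, limma adjusted p = 0.0372). PETE2 did not pass in pifq (log2 change 1.36, SE 0.37, limma adjusted p = 0.0716) and fell in f1f3 (log2 change -1.84, SE 0.37, limma adjusted p = 0.0124). PETC changed least in both mutants (0.86, limma adjusted p = 0.0669, in pifq, and -0.95, limma adjusted p = 0.0216, in f1f3). Without f1f3 replicate 2 or either Col library, 1 of the 3 fell in f1f3, and without a pifq library 2 did. The rise of PETE1 did not pass without pifq replicate 1, and all 3 rose in pifq without an f1f3 library. The 103 bases between PETE1 and its upstream neighbour AT1G76110 (chr1:28554931-28555033, minus strand), shown because PETE1 rose most among the carriers, hold none of the motifs. The I-box and ACGT core counted above for PETE1 were found only when the 50 bases after the start were included.

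PETE1: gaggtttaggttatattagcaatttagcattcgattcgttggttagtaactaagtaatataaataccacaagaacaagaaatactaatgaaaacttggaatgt

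Ferredoxin takes electrons from photosystem I, and ferredoxin NADP reductase passes them to NADP. FD2 (AT1G60950, chromosome 1, 22444307 to 22445291, plus strand), the main leaf ferredoxin, had 26118 and 29418 in pifq, 7769.5 and 5059 in f1f3, and 10223 and 9582 in Col. FD1 (AT1G10960, chromosome 1, 3664187 to 3665040, plus strand), the minor leaf ferredoxin, had 7580.4 and 5523 in pifq, 6117 and 3933 in f1f3, and 9037 and 6913 in Col. The pifq values of FD2 were far above those of Col, whereas those of FD1 overlapped the values of both Col and f1f3. FD2 rose in pifq (log2 change 1.49, SE 0.26, limma adjusted p = 0.0186), where FD1 did not pass (log2 change -0.29, SE 0.28, limma adjusted p = 0.585). In f1f3 neither passed, with -0.66, limma adjusted p = 0.104, for FD2 and -0.69, limma adjusted p = 0.109, for FD1, although the f1f3 values of each lay below those of Col. LFNR1 (AT5G66190) had 5132 and 6282 in pifq, 1437 and 1149.8 in f1f3, and 2147 and 2259.6 in Col. LFNR2 (AT1G20020) had 3055 and 3119 in pifq, 638.4 and 639.9 in f1f3, and 1342 and 1436 in Col. The replicates of both reductases were close together and the groups were separate. LFNR1 rose in pifq (log2 change 1.37, SE 0.19, limma adjusted p = 0.00751) and fell in f1f3 (log2 change -0.78, SE 0.19, limma adjusted p = 0.0229). LFNR2 rose in pifq (log2 change 1.15, SE 0.15, limma adjusted p = 0.00651) and fell in f1f3 (log2 change -1.12, SE 0.15, limma adjusted p = 0.00391). Both rises held without each library in turn, and so did the fall of LFNR2, while the fall of LFNR1 did not pass without f1f3 replicate 2 or without either Col library. FD2 did not pass in pifq without any one Col or pifq library, and passed in f1f3 without f1f3 replicate 1.

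PGR5 and PGRL1A act in cyclic electron flow, which returns electrons from ferredoxin to plastoquinone. PGR5 (AT2G05620, chromosome 2, 2080647 to 2081859, minus strand) had 610.9 and 819.5 in pifq, 405.5 and 340.6 in f1f3, and 683.7 and 869.0 in Col. PGRL1A (AT4G22890) had 1112 and 1266 in pifq, 416.1 and 465.2 in f1f3, and 620.7 and 672.1 in Col. The pifq values of PGR5 overlapped those of Col, and those of PGRL1A lay above them, while f1f3 was lowest for both. PGR5 stood at -0.12 in pifq (95% interval -0.63 to 0.38, limma adjusted p = 0.79) and fell in f1f3 (log2 change -1.05, SE 0.22, limma adjusted p = 0.0134). PGRL1A rose in pifq (log2 change 0.88, SE 0.17, limma adjusted p = 0.0254) and was just past the threshold in f1f3 (log2 change -0.55, SE 0.17, limma adjusted p = 0.049), where it did not pass without any one of 6 libraries. PGR5 did not pass in f1f3 without f1f3 replicate 2 or Col replicate 2, and PGRL1A did not pass in pifq without any one Col or pifq library.

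ATPC1 and ATPD encode the gamma and delta subunits of the chloroplast ATP synthase. ATPC1 (AT4G04640) had 8631 and 11311 in pifq, 3088 and 2332 in f1f3, and 4535 and 4791 in Col. ATPD (AT4G09650) had 7400.0 and 9122 in pifq, 2116 and 1512 in f1f3, and 3049.6 and 2849 in Col. Both were highest in pifq and lowest in f1f3, without overlap. ATPC1 rose in pifq (log2 change 1.08, SE 0.22, limma adjusted p = 0.0295) and fell in f1f3 (log2 change -0.80, SE 0.22, limma adjusted p = 0.035). ATPD did so too, with log2 change 1.48, SE 0.22, limma adjusted p = 0.00919, in pifq and log2 change -0.72, SE 0.22, limma adjusted p = 0.0451, in f1f3. In f1f3 both falls did not pass without f1f3 replicate 2 or either Col library, nor did that of ATPD without either pifq library, and in pifq 0 or 1 of the rises passed without a Col or a pifq library.

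The 9 pairs of paralogs encode forms of 1 protein, with transcripts of 77.5% to 87.9% identity where they align, so the share of the second gene in the summed value of the pair was taken within each library. The transcripts of each pair share no window of 50 bases, and their longest identical run is 17 to 35 bases, so reads of the pair can be told apart if they are long enough, and the read length is not given in the sources used here. PSBQ-2 took 46.7% and 55.2% of its pair in pifq, 20.04% and 22.4% in f1f3, and 39.0% and 43.6% in Col. The f1f3 shares were the lowest and the pifq shares the highest, with no overlap. FD2 took 77.5% and 84.2% of its pair in pifq, 56.0% and 56.3% in f1f3, and 53.1% and 58.1% in Col. Only pifq stood apart there, since the f1f3 shares lay between those of Col. LHCB4.2 took 29.6% and 35.4% in pifq, 33.0% and 28.6% in f1f3, and 41.3% and 41.7% in Col. Both mutants were below Col and overlapped each other. PETE2 took 90.7% and 91.8% in pifq, 90.8% and 88.8% in f1f3, and 94.0% and 94.1% in Col, in the same order. PSBO2 took 11.3% ± 0.298 of its pair in pifq, 8.29% ± 2.09 in f1f3 and 7.45% ± 0.446 in Col (SD, n = 2 each), with pifq above the other groups. PSAD-2 took 25.6% ± 2.36 in pifq, 19.0% ± 0.0640 in f1f3 and 27.3% ± 3.84 in Col, with f1f3 below the other groups. PSAE-2 (26.5% ± 2.53 in pifq, 25.3% ± 2.95 in f1f3 and 30.9% ± 1.83 in Col) and LFNR2 (35.2% ± 2.93, 33.3% ± 3.53 and 38.7% ± 0.286 in the same order) were lower in both mutants than in Col. The shares of PSAH-2 overlapped among all groups. With 2 libraries against 2, the two-sided exact permutation test cannot give a p below 0.33, and every pair of groups without overlap had that p.

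**Figure D4:**
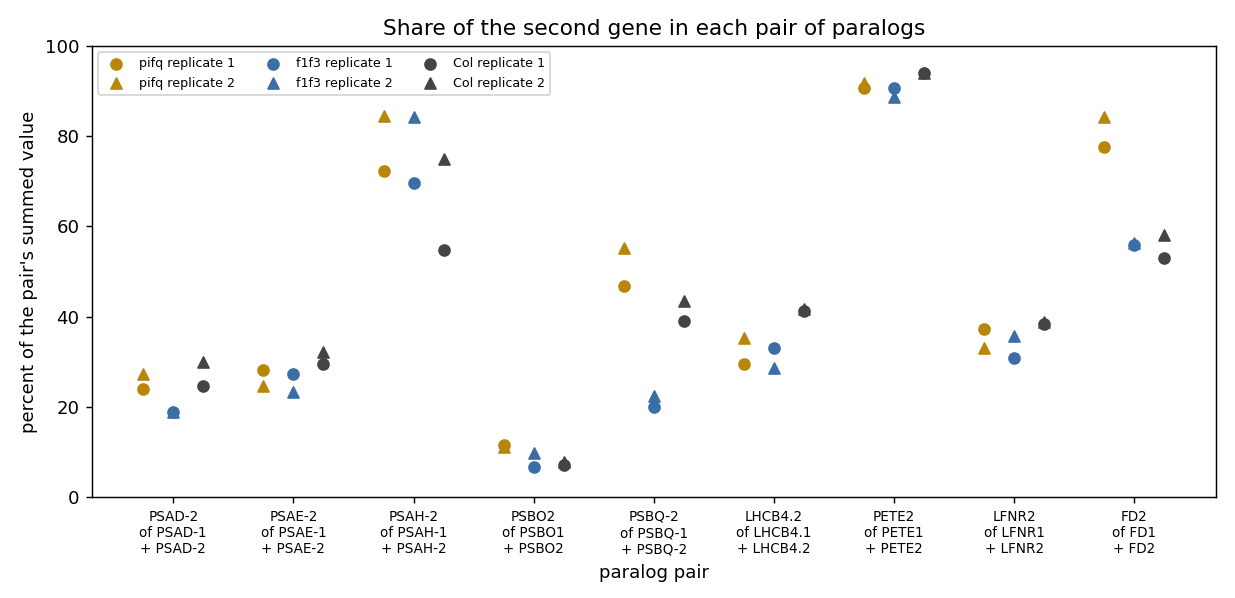
Share of the second gene in the summed value of each pair of paralogs (y axis, percent), with 1 point per library, pifq in ochre, f1f3 in blue and Col in dark grey. For PSBQ-2 the f1f3 points lie at 20.04% and 22.4%, below all others, and for FD2 the pifq points lie at 77.5% and 84.2%, above all others.

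The order of the 42 levels per kilobase of transcript also differed between the groups. In pifq PSBO1 stood first, with a mean of 52277 per kilobase, before LHCB4.1 with 52034 and PSAF with 42330.0. In f1f3 the ferredoxins led, FD2 with 6512 per kilobase and FD1 with 5884, before PSBO1 with 4479. In Col PSBO1 stood first with 21758, before PSAG with 21185 and LHCB4.1 with 19049. FD1 was number 27 of the 42 in pifq, 2 in f1f3 and 14 in Col. LHCB6 was number 4 in pifq, 21 in f1f3 and 10 in Col. LHCB4.3 was last in all 3 groups. These are ranks of group means, given as a description.

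The 2 replicates of f1f3 differed in these genes. In f1f3, replicate 2 was lower than replicate 1 for 40 of the 42, beside 51.4% of all tested genes. The median log2 ratio there was -0.92, against -0.01 over all tested genes. The pifq replicates had a median log2 ratio of 0.16 (0.02 over all tested genes), with 13 of the 42 lower in replicate 2, beside 48.0%. The Col replicates had -0.19 (-0.01 over all tested genes), with 34 lower in replicate 2, beside 50.5%. The difference within f1f3 was thus larger than those within the other groups, and smaller in size than the median of -1.76 for f1f3 against Col.

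A list of 32 other genes, of the thylakoid and of electron carriers in green and non-green tissue, was set beside the 42, with 30 of them tested. In f1f3 against Col, 15 fell and 3 rose, beside 12.8% of all tested genes that fell and 11.6% that rose. In pifq against Col, 3 rose and 1 fell, beside 3.61% of all tested genes that rose and 2.87% that fell. The rises in f1f3 and the fall in pifq stood close to these shares. Among 14 tested further photosystem, carrier and CURT1 genes, 5 fell in f1f3: ATPG, the b' subunit of the ATP synthase (-1.55, limma adjusted p = 0.0115), PETM of the cytochrome b6f complex (-1.12, limma adjusted p = 0.0213), the membrane-bending proteins CURT1A (-1.11) and CURT1C (-0.68), and PGRL1B (-0.77). The 3 that rose in f1f3 were FD3, the ferredoxin of roots and other non-green tissue (0.87, limma adjusted p = 0.0256), and its reductases RFNR1 (1.52, limma adjusted p = 0.00334) and RFNR2 (0.85, limma adjusted p = 0.0214). RFNR1 had 2535 and 1889 in pifq, 2953 and 3417 in f1f3, and 1041 and 1170.1 in Col. Both mutants were above Col for this non-photosynthetic reductase, unlike for the leaf forms LFNR1 and LFNR2. In pifq RFNR1 rose (0.99, limma adjusted p = 0.0278), as did CURT1C (1.09, limma adjusted p = 0.0239) and FDC2, a ferredoxin-like protein (0.86, limma adjusted p = 0.0343). Of the 12 root genes of the marker list, EXPA18 (2.38), COBL9 (1.18), EXPA7 (1.06), GL2 (0.87) and PLT2 (1.76) rose in f1f3, and the iron transporter IRT1 (-6.68) fell. The other 6 did not pass: PLT1 (0.89), SCR (-0.01), SHR (-0.16), MYB36 (-0.48), CASP1 (-0.76) and CASP2 (-0.98). The read shares of the whole list in Col lay between those of the f1f3 libraries. The part of root material in the result was not tested.

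The NDH complex runs another route of cyclic flow, and its 4 nuclear subunits on the list fell in f1f3 (median -1.73). In pifq their median was -0.78: NDHO fell (log2 change -1.07, SE 0.16, limma adjusted p = 0.00938), and NDHL (0.09), NDHM (-0.98) and NDHN (-0.59) did not pass. The fall of NDHO did not pass without either Col library or without pifq replicate 1. NDHO had 893.6 and 902.3 in pifq, 509.2 and 462.6 in f1f3, and 1833 and 1949.8 in Col. Its pifq values lay below Col, unlike those of 39 of the 42 genes, and above f1f3, without overlap. Of 8 assembly and repair factors, HCF136 of photosystem II (-1.35, limma adjusted p = 0.00566), the membrane insertase ALB3 (-1.19, limma adjusted p = 0.00668) and PPL1, needed for repair of photosystem II (-1.0, limma adjusted p = 0.0125), fell in f1f3. The 8 had a median of 0.20 in pifq, where they did not pass. Of 4 genes of state transitions and heat release, the kinase STN8 (-1.19), the phosphatase TAP38 (-0.93) and NPQ1, the violaxanthin de-epoxidase (-0.77), fell in f1f3. The 4 had a median of -0.07 in pifq, where they did not pass. The f1f3 count of 15 was 5 without f1f3 replicate 2, 7 without Col replicate 1 and 9 without Col replicate 2. In pifq against f1f3, 16 of the 30 rose and 1 fell, beside 9.36% of all tested genes that rose and 6.63% that fell. The 8 rises with the smallest p were those of CURT1C (1.77), CURT1A (1.5), PPL1 (1.31), HCF136 (1.3), PETM (1.60), ATPG (1.72), the state transition kinase STN7 (1.73) and NDHO (0.89), and RFNR2 fell (-0.85). That count of rises was 7 without f1f3 replicate 2 or pifq replicate 2 and 10 without pifq replicate 1, and the fall of RFNR2 did not pass without f1f3 replicate 1 or either pifq library. The pifq count of 3 higher against Col was 0 without either Col library and 1 without either pifq library.

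**Figure D5:**
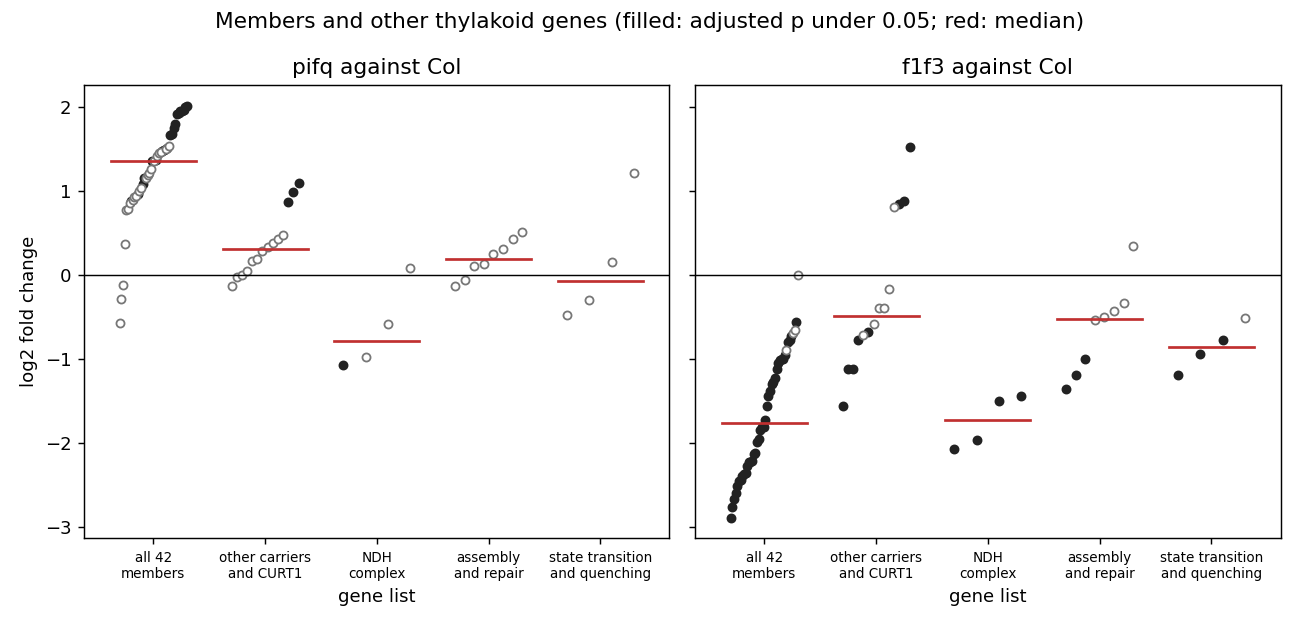
Log2 fold change of each gene (y axis) in pifq against Col (left) and f1f3 against Col (right), for the 42 genes and for 4 lists of other thylakoid and electron carrier genes, with filled points for limma adjusted p under 0.05 and a red line at each median. In pifq the median is 1.36 for the 42 genes and -0.78 for the NDH complex, and in f1f3 both medians lie below 0, at -1.76 and -1.73.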

How the data were processed

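The deposited tables hold 1 value per gene for each library. The labels name no unit, and the values are treated as a signal. Trimmomatic, TopHat2 2.1.0, HTSeq 0.6.1 and edgeR are named, with genome build TAIR10, in the submitters' processing notes. Strandedness, read length and allele names are not given in the sources used here. The authors scaled the signal values before they were deposited: 99.9% to 100% of values in each library were whole multiples, within 0.0505, of the value of 1 read, which was 0.799 to 1.29. The recovered reads, 17.9 M to 27.7 M per library, were used for read shares and for count tests as alternatives.

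Because the values are scaled reads, the main test was limma 3.58.1 (R 4.3.3) with an intensity trend on log2(value + 1), which understates changes of low genes, in place of a test on raw counts. All 6 libraries entered 1 fit without a replicate block, on the 20581 genes at 10 or more in at least 2 libraries. The p-values were adjusted by Benjamini-Hochberg, with a threshold of 0.05. With 2 libraries a group, the p-values rest on the spread between these samples, with 3 residual degrees of freedom. That spread is drawn toward the one of genes of similar level (mean prior degrees of freedom 5.15). Alternatives were pseudocounts of 0.5 and 10, no filter or one of 50, library totals, TMM factors, edgeR 4.0.16, DESeq2 1.42.0, limma without a trend, a replicate block, fits of 2 groups, and leaving out each library.

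Python 3.11.15 with Biopython 1.88 read promoters and transcripts from the RefSeq TAIR10.1 assembly. The gene tables hold no coordinates, so all positions printed are those of RefSeq. Motifs were counted over the whole window of each gene, neighbouring genes included. Protein sequences were not used here. The stretch before 1 gene that the rule names is not reported here. Of the 42 genes, 13 overlap another annotated gene, 11 of them on the opposite strand, where reads of the partners cannot be told apart without strand. LHCB6 is among these, overlapped by AT1G15810 over 103 bases (highest value 1272) and by AT1G05207 over 358 bases. On the same strand, where strand would not tell reads apart, AT1G10950 overlaps FD1 over 78 bases (highest value 5265). Same-strand overlaps of PSBP-1 and PSAD-2 cover 22 and 2 bases.

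Values per library are given for every paralog, for the largest and smallest changes of each complex in each mutant, and for each gene that did not pass in f1f3. Of the other thylakoid and electron carrier genes, the rule names up to 8 that passed in each comparison, by smallest p. Further ones that passed against Col, and RFNR2, were named after their values were seen. The 42 genes, the lists and the motifs were chosen with earlier results of these data known. FD4 was not analysed here, and CYTC6A did not pass the filter.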

Additional observations from a re-analysis of the deposited data

How the results depend on the processing

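The 38 falls in f1f3 against Col were 23 with limma without a trend, 18 (without f1f3 replicate 2) to 38 when 1 library was left out, and 33 to 40 under the other alternatives. The 20 rises in pifq against Col were 4 with limma without a trend, 33 with DESeq2 and 32 with the replicate block, and 6 (without Col replicate 2) to 32 (without either f1f3 library) when 1 library was left out. The median of the 42 genes ranged from -2.14 to -1.25 in f1f3 against Col and from 2.60 to 3.85 in pifq against f1f3 when 1 library was left out. Scaling by library totals put the all-gene median at 0.12 in f1f3 against Col and at -0.15 in pifq against f1f3, instead of -0.00 and -0.02. When 1 library was left out, the value of PSB28 in f1f3 ranged from -0.16 (without f1f3 replicate 1; -0.05 without Col replicate 1) to 0.17, and that of PGR5 in pifq from -0.33 to 0.088 (without pifq replicate 1; 0.05 without Col replicate 2). The cause was not tested.

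Of the other thylakoid and electron carrier genes, limma without a trend gave 1 rise in f1f3 against Col, 0 rises and 0 falls in pifq against Col, and 10 rises and 0 falls in pifq against f1f3. The falls in pifq against Col were 2 with edgeR (TMM or RLE), with DESeq2 and with the replicate block. Leaving out 1 library gave 1 to 4 rises and 5 to 14 falls in f1f3 against Col, 0 to 3 rises and 0 to 1 falls in pifq against Col, and 7 to 14 rises and 0 to 1 falls in pifq against f1f3.

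Per length, the share of PSAD-2 in its pair was 29.0% in pifq and 21.7% in f1f3, of PSAE-2 32.1% in pifq, 30.8% in f1f3 and 37.0% in Col, of PSBO2 12.6% in pifq and 8.38% in Col, and of PSBQ-2 18.8% in f1f3 and 37.7% in Col. It was 43.6% for LHCB4.2 in Col, 89.0% in pifq, 87.2% in f1f3 and 92.4% in Col for PETE2, 31.9% in pifq and 35.1% in Col for LFNR2, and 52.6% for FD2 in f1f3. In the 250 bases before the start, the share of windows was 21.4% for the G-box and 23.8% for the I-box.

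Same-numbered libraries deviated together (correlations of 0.44 for pifq and Col, 0.35 for f1f3 and Col, and 0.21 for pifq and f1f3), but the labels do not pair them and there are 2 numbers. With the replicate block, 40 genes fell in f1f3, FD1 and FD2 among them (limma adjusted p = 0.00913 and 0.0418), beside 18.6% of all tested genes. In that fit 32 rose in pifq against Col, beside 7.83%, and 40 rose in pifq against f1f3, beside 14.4%. The 2 libraries a group leave 3 residual degrees of freedom, which limits every test here; the 42 genes are read deeply enough that the lowest value was 41.3.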
